A study of Homo sapiens with 6 samples.

Results

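The 7 genes described here, STMN1, STMN2, STMN3, STMN4, GAP43, BASP1 and MARCKS, encode proteins of the growing axon tip. They were chosen by name, with earlier results of these data known. Their chromatin was read from peaks within 10 kb of each gene's interval in the RefSeq table for GRCh38.p14, which holds 19974 protein-coding genes on the 23 chromosomes used. The windows held 45 of the 78694 listed H3K27ac peaks and 16 of the 43677 listed CTCF peaks. The cells were neurons grown in BrainPhys-type culture out of KOLF2.1J neural progenitors (KOLF2.1J is a widely used human iPSC line), so all material came from 1 genetic background with no treatment. Chromatin immunoprecipitation with sequencing gave 2 libraries with an antibody to CTCF, 2 with an antibody to H3K27ac and 2 input libraries. Each antibody is represented by a single peak list for both of its replicates. No spread between replicates could therefore be estimated, no test was made, and every comparison below is a description. The lists hold no read counts, so the depth behind a value is unknown.

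Growth cones are the motile tips of growing axons, where microtubules and actin are rebuilt continuously. Stathmins bind soluble tubulin and promote the disassembly of microtubules: STMN1 is the cytosolic founder of the family, while STMN2, STMN3 and STMN4 are neuronal members held at membranes by a palmitoylated N-terminal extension. GAP43, BASP1 and MARCKS are acidic proteins attached to the inner face of the plasma membrane, where they bind calmodulin or phosphoinositides and influence actin; all are substrates of protein kinase C. H3K27ac, acetylated lysine on histone H3, accumulates at active promoters and enhancers. CTCF is a zinc finger protein that binds DNA at insulators and loop anchors and at many promoters.

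The RefSeq promoter table (build GRCh38.p14) held windows of 300 bases, from 250 bases before to 50 bases after a transcript start, for 5 of the 7 genes. STMN1 had 3 listed starts and STMN3, GAP43, BASP1 and MARCKS had 1 each. STMN2 and STMN4 had no entry. The 250 bases before the start are printed for GAP43, MARCKS, BASP1 and STMN3. GAP43 had an unusual purine-rich promoter, and the MARCKS promoter was overlapped by the strongest H3K27ac peak of the set. BASP1 and STMN3 were the genes of the set with a CTCF peak over the promoter and a single start. All are written 5′ to 3′ on the gene's strand: GAP43 at chr3:115623260-115623509 (plus strand), MARCKS at chr6:113857095-113857344 (plus strand), BASP1 at chr5:17216573-17216822 (plus strand) and STMN3 at chr20:63652767-63653016 (minus strand). Capitals mark matches, on either strand, to GGGCGG (the GC box), CCAAT (a common proximal promoter element), CAGCTG (an E-box), TGACG (the cAMP response element's shorter form) and AGGGGGC (a form of the CTCF core). TATAAA and the other CTCF core form, AGGTGGC, were searched too and had no match in these stretches.
GAP43: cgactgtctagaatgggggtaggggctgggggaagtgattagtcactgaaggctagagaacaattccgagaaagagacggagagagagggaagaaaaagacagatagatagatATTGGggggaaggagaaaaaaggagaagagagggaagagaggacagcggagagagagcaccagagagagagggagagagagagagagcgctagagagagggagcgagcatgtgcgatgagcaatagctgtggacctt
MARCKS: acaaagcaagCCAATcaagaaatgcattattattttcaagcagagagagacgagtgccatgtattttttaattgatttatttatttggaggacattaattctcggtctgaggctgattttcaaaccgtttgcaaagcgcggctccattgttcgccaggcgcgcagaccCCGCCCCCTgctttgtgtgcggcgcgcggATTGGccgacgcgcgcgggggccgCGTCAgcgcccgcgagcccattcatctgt
BASP1: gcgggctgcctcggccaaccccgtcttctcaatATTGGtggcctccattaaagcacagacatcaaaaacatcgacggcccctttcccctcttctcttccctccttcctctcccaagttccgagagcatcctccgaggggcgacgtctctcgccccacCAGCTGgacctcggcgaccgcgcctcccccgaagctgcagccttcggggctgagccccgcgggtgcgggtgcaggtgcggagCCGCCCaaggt
STMN3: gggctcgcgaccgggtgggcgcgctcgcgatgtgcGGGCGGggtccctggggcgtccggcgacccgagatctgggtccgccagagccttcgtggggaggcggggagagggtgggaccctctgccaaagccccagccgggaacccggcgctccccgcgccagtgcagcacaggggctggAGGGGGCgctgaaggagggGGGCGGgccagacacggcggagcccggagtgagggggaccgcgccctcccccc

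The GAP43 window stood apart in composition. A or G made up 76.3% of its bases on the gene's strand, at percentile 99.9 of the 22130 windows of protein-coding genes, whose median was 50.3%. This measure was chosen after the sequence had been seen. The window held 7 CpG dinucleotides (percentile 25.0) and 52.7% G or C (percentile 24.6). It had 1 CCAAT match, at position -137 from the start, and no GC box. MARCKS had a similar G and C share of 53.0% but 25 CpG dinucleotides, and the GC and CpG richest window was that of STMN3, with 77.7% G or C and 35 CpG dinucleotides. The first, outermost start of STMN1 had 19 CpG dinucleotides and no GC box, whereas the windows at its other starts had 29 and 31, with 3 and 5 GC box matches. Across all windows, 56.3% held GGGCGG, 34.6% held CCAAT, 27.9% held TGACG, 18.0% held CAGCTG and 17.5% held AGGGGGC. The general E-box CANNTG, which includes CAGCTG, occurred in windows of 5 of the 5 genes and in 65.1% of all windows. TATAAA (the TATA box, in 9.46% of all windows) had no match in the members' windows. The same held for the full cAMP response element TGACGTCA, which contains the shorter form and was in 2.26% of all windows, and for the ETS motif CCGGAAG, which was in 12.8%. The NRF1 motif part GCATGCGC, in 3.74% of all windows, and the AP-1 motif, which reads TGA and TCA with any base between them and was in 6.15%, had no match either. AGGTGGC, found in 7.18% of all windows, matched once, in STMN3.

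**Figure D1:**
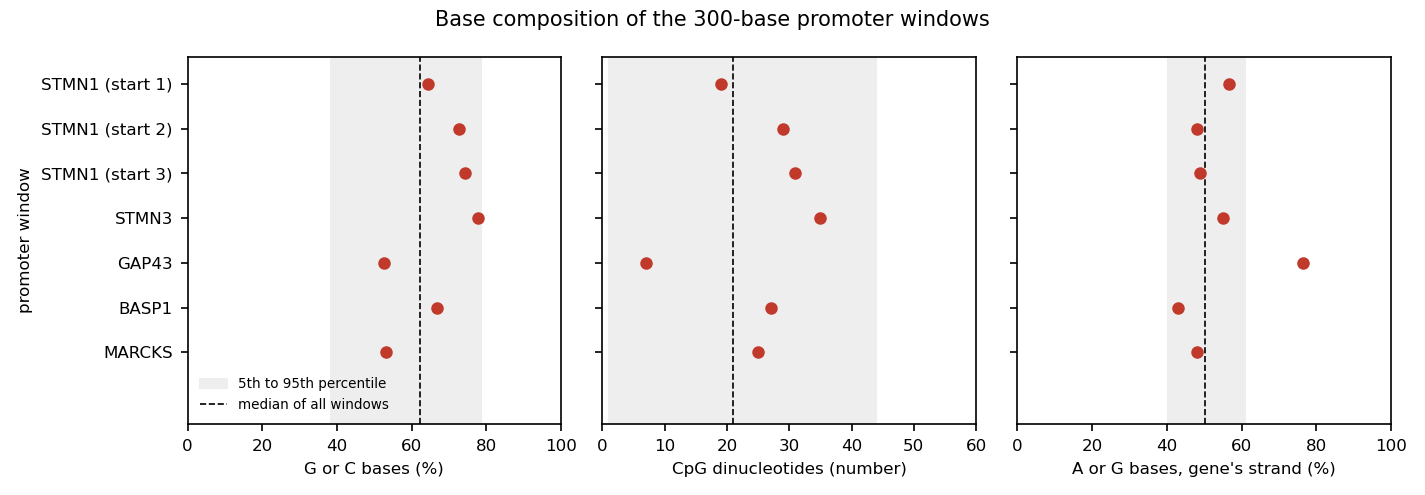
Base composition of the 7 promoter windows of 300 bases listed for 5 genes: share of G or C, number of CpG dinucleotides and share of A or G on the gene's strand. Grey bands span the 5th to the 95th percentile of all windows of protein-coding genes and dashed lines their medians; the GAP43 window lies outside the band for A or G, at 76.3%.

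In bulk chromatin a mark present in few cells cannot be told apart from a weaker mark in many, which applies to every value below. Every one of the 7 genes had at least 1 H3K27ac peak in its window, against 77.1% of all protein-coding genes, and 5 of the 5 genes with a listed promoter window had a peak over it, against 61.4% of the 15812 protein-coding genes with such a window. The value in the H3K27ac list is the authors' own, read as fold enrichment at the summit, with a median of 4.74 over the list. The peaks overlapping the promoter windows had values of 62.3 at MARCKS, 18.0 at BASP1 and 17.6 at GAP43. The value was 15.6 at STMN1, where 1 peak covered all 3 starts, and 13.2 at STMN3. Only at GAP43 did the summit lie inside the promoter window. The other values are those of peaks reaching over a window and not levels at the start itself. The MARCKS peak was far above the other 4, whose values lay close together. The strongest H3K27ac peak anywhere in the window was 62.3 at MARCKS and 47.0 at GAP43, at percentiles 98.7 and 95.04 of all protein-coding genes ranked by their strongest peak. It was 18.2 at STMN3, 18.0 at BASP1, 17.9 at STMN2, 17.3 at STMN4 and 15.6 at STMN1, at gene percentiles from 58.4 to 64.2. All 7 were above the median of all protein-coding genes, 12.3, but 5 of them only moderately. The searched window is longer for longer genes, which was not allowed for in these comparisons. Without replicate values, the order among those 5 cannot be told from equal levels.

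**Figure D2:**
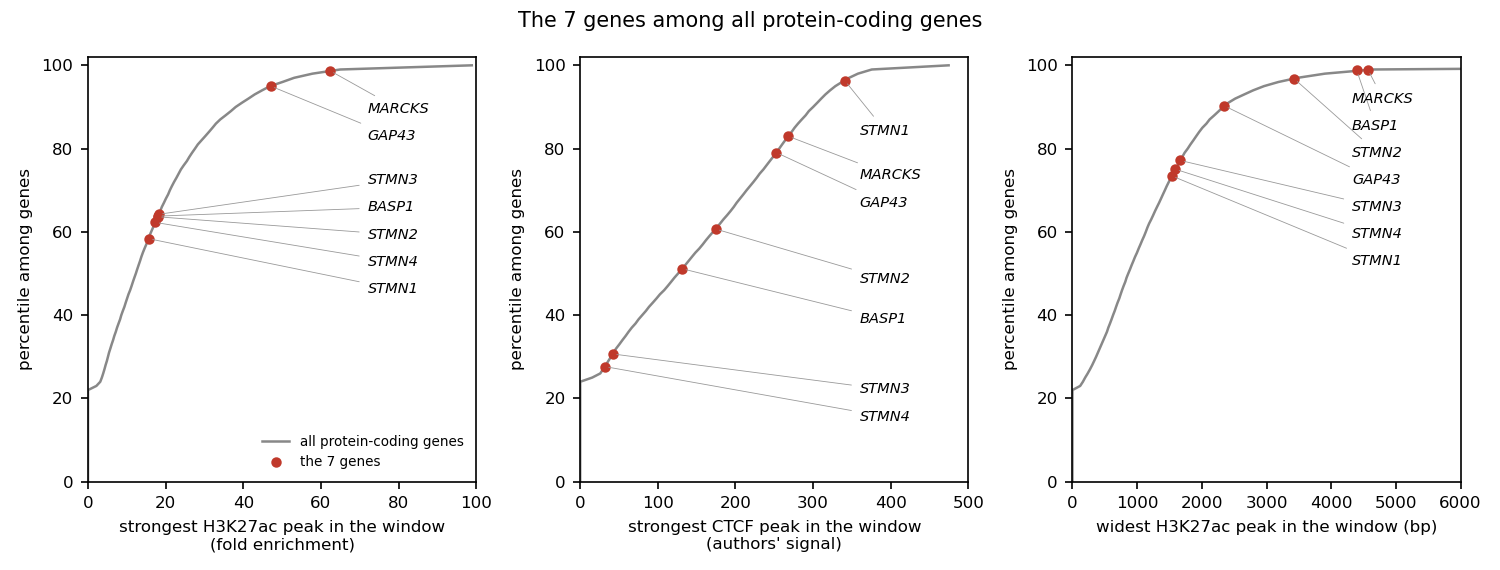
The 7 genes (points) on the distribution of all 19974 protein-coding genes (line), for the strongest H3K27ac peak, the strongest CTCF peak and the widest H3K27ac peak within 10 kb; the horizontal axes give the value and the vertical axes the percentile among genes. MARCKS and GAP43 stand above percentile 95 in the first panel, STMN3 and STMN4 fall below 31 in the second, and MARCKS, BASP1 and STMN2 exceed 96 in the third.

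Width separated the genes differently from height. The H3K27ac peak over the MARCKS start spanned 4568 bp, that over the BASP1 start 4395 bp, that at the lower-coordinate end of STMN2 3428 bp and that over the GAP43 start 2348 bp. The median width in the list was 356 bp, and the median over protein-coding genes of their widest peak was 863 bp. By widest peak these 4 genes were at gene percentiles 98.9, 98.8, 96.8 and 90.3, while STMN3, STMN4 and STMN1, with widest peaks of 1669, 1589 and 1536 bp, were at 77.1, 75.1 and 73.4. BASP1 and STMN2 therefore combined a moderate summit value with a broad interval. H3K27ac intervals covered 21.2% of the MARCKS window, 13.8% of that of STMN3, 13.2% of that of STMN1 and between 4.57% and 7.68% of the others, against a median of 2.38% over all protein-coding genes.

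GAP43, the calmodulin-binding growth cone protein, had the most H3K27ac peaks, 14, in a gene interval of 98.0 kb on chromosome 3 (115623510 to 115721483). Its strongest peak was not at the start. It ran from 115657730 to 115659571, with the summit 35.4 kb inside the gene, an enrichment of 47.0-fold (−log10 q 163.6), at percentile 99.2 of the list. The peak over the start (115623033 to 115625380) had its summit 66 bp before the start and a fold enrichment of 17.6 (−log10 q 49.99, percentile 91.0). Of the 5 genes with a listed start, GAP43 was the 1 whose strongest peak lay more than 2 kb from every listed start, a position found in 35.0% of the 12466 protein-coding genes with a peak and a listed start; this distance was set after the values were seen. The 3 small peaks next to the strong one had values of 3.73, 2.43 and 3.96. A further group lay 69.1 to 70.5 kb inside the gene with values of 3.305, 11.1 and 7.27, and the last group, 75.1 to 76.5 kb inside, had 2.56, 3.68 and 4.60. The peaks at 2.43 and 2.56 were the only 2 of the members' 45 with a −log10 q below that of q = 0.05 (0.581 and 1.05). In the whole list, 5446 of the 78694 H3K27ac peaks were below it. The gene table does not give exons, so whether these peaks lie in exons or introns was not analysed here.

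CTCF was listed 4 times in GAP43, each time sharing at least 1 bp with an H3K27ac peak. The CTCF value is the authors' peak signal on an unstated scale, with a list median of 91.0. The strongest, from 115692852 to 115693326 with a signal of 252.6 (percentile 89.3), lay 69.6 kb inside the gene and met the H3K27ac peak of value 11.1. Near the start, CTCF peaks with summits 1.55 and 2.81 kb inside the gene had signals of 31.2 and 65.1. The CTCF peak under the 47.0-fold H3K27ac peak was weak, with a signal of 23.7 at percentile 6.02, and had the width of 800 bp that recurs in 14577 entries of this list. The promoter window itself had no CTCF peak.

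MARCKS, the myristoylated protein kinase C substrate, is a short gene of 6.13 kb on chromosome 6 (113857345 to 113863475). Its promoter peak (113855199 to 113859766) reached 62.3 with the summit 501 bp inside the gene, a −log10 q of 261 and percentile 99.8 of the list. A second peak of 17.7 lay before the start (113854453 to 113855019, summit 2.66 kb away), and a weak one of 4.07 had its summit 3.31 kb before the start. A CTCF peak with a signal of 268 (113858857 to 113859349, percentile 91.6) lay inside the broad promoter peak, 1.76 kb past the start. A weaker one of 73.2 met the 17.7-fold peak. Neither touched the promoter window, although that window held an AGGGGGC match at position -80, which shares bases with a GC box match at -82. The lncRNA genes MROCKI and LOC124901382 reach into the window, 4.54 and 9.93 kb from MARCKS, and no H3K27ac peak was listed beyond the gene on that side within 10 kb.

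BASP1, a MARCKS-like membrane protein also known as CAP23, had 5 H3K27ac peaks around its 60.01 kb interval on chromosome 5 (17216823 to 17276834). The widest and strongest (17215929 to 17220323) reached 18.0-fold (−log10 q 97.1) with its summit 1.62 kb inside the gene. A peak of 9.27 lay 1.27 kb before the start, and those inside the gene at 3.81, 11.9 and 12.5 kb had values of 4.95, 2.52 and 4.45. The rest of the gene carried no peak of either list. Both CTCF peaks were at the start: one from 17216064 to 17216539 with a signal of 131 (percentile 63.0), and one from 17216528 to 17216893 with a signal of 36.1 and its summit 121 bp before the start. The second covered the promoter window. The CAGCTG match at position -93, printed above in capitals, lay 31 bp from its summit, and the window had no match to either CTCF core form. The interval of BASP1-AS1, a lncRNA gene, ends within the same broad H3K27ac peak, so acetylation there cannot be assigned to BASP1 alone.

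STMN1, the ubiquitous stathmin, has a 22.7 kb interval on chromosome 1 (25884179 to 25906880). It had 11 H3K27ac peaks within 10 kb, 10 of them in the interval itself. The peak covering all 3 starts (25905667 to 25907202) reached 15.6-fold (−log10 q 54.0), and a neighbour 800 bp inside the nearest start had 10.9. The remaining 9 ranged from 3.31 to 7.04. The lncRNA gene LOC105376885 starts inside the promoter peak on the opposite strand, and MIR3917 lies within the gene near the starts. STMN1 also had the strongest CTCF peak of the set. It ran from 25895282 to 25895831, 10.5 kb inside the gene from the nearest start, with a signal of 341 at percentile 98.5 of the list and 96.3 of protein-coding genes by strongest CTCF peak. It shared bases with 2 weak H3K27ac peaks on either side (3.50 and 4.87), and its summit fell in neither. At the innermost start a CTCF peak of 800 bp had a signal of only 21.9; the 2 AGGGGGC matches of that window lay inside it, 280 and 334 bp from its summit.

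STMN3, a neuronal stathmin also called SCLIP, lies on chromosome 20 (63639712 to 63653424). The peak over its start (63652083 to 63653451) reached 13.2-fold and was followed, on the upstream side, by a peak of 18.2 (63653604 to 63654685, summit 1.00 kb before the start). Another strong peak in the window, 16.6, covered the listed starts of RTEL1, a helicase gene 4.39 kb away, and thus lies at that gene's promoter. The only CTCF peak (63652446 to 63653245, 800 bp wide) had a signal of 41.9 at percentile 22.4. Its summit was 80 bp before the start, and the AGGGGGC match of the printed sequence, at position -72, lay 11 bp from that summit. A match describes letters in the reference and not binding.

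The other neuronal stathmins lie on chromosome 8. STMN2, also called SCG10 (79611117 to 79666158), had a single H3K27ac peak across its interval of 55.0 kb and both flanks. It spanned the lower-coordinate end of the gene (79610454 to 79613881, summit 0.139 kb inside) and reached 17.9-fold (−log10 q 51.4). A CTCF peak with a signal of 174 (79613076 to 79613540, percentile 74.0) lay at the inner part of that peak, and CTCF peaks of 69.1 and 60.2 followed 4.501 and 41.8 kb inside the gene without H3K27ac. STMN4, also called RB3 (27235308 to 27258404), had 6 H3K27ac peaks, all near or beyond the higher-coordinate end of its interval. The strongest 2 were outside the interval, at 0.612 kb (27258559 to 27259380, fold enrichment 15.9) and 3.27 kb (27260751 to 27262339, fold enrichment 17.3), and the strongest inside was 7.501. Its CTCF peaks were the weakest of the set by strongest value, 31.6 and 31.3, and both were 800 bp wide. The stathmins thus had similar highest H3K27ac values, from 15.6 to 18.2, in unlike arrangements. Within 10 kb, STMN2 had 1 broad peak and STMN1 had 11 peaks. At STMN3 and STMN4 the strongest peaks lay beyond the gene interval.

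**Figure D3:**
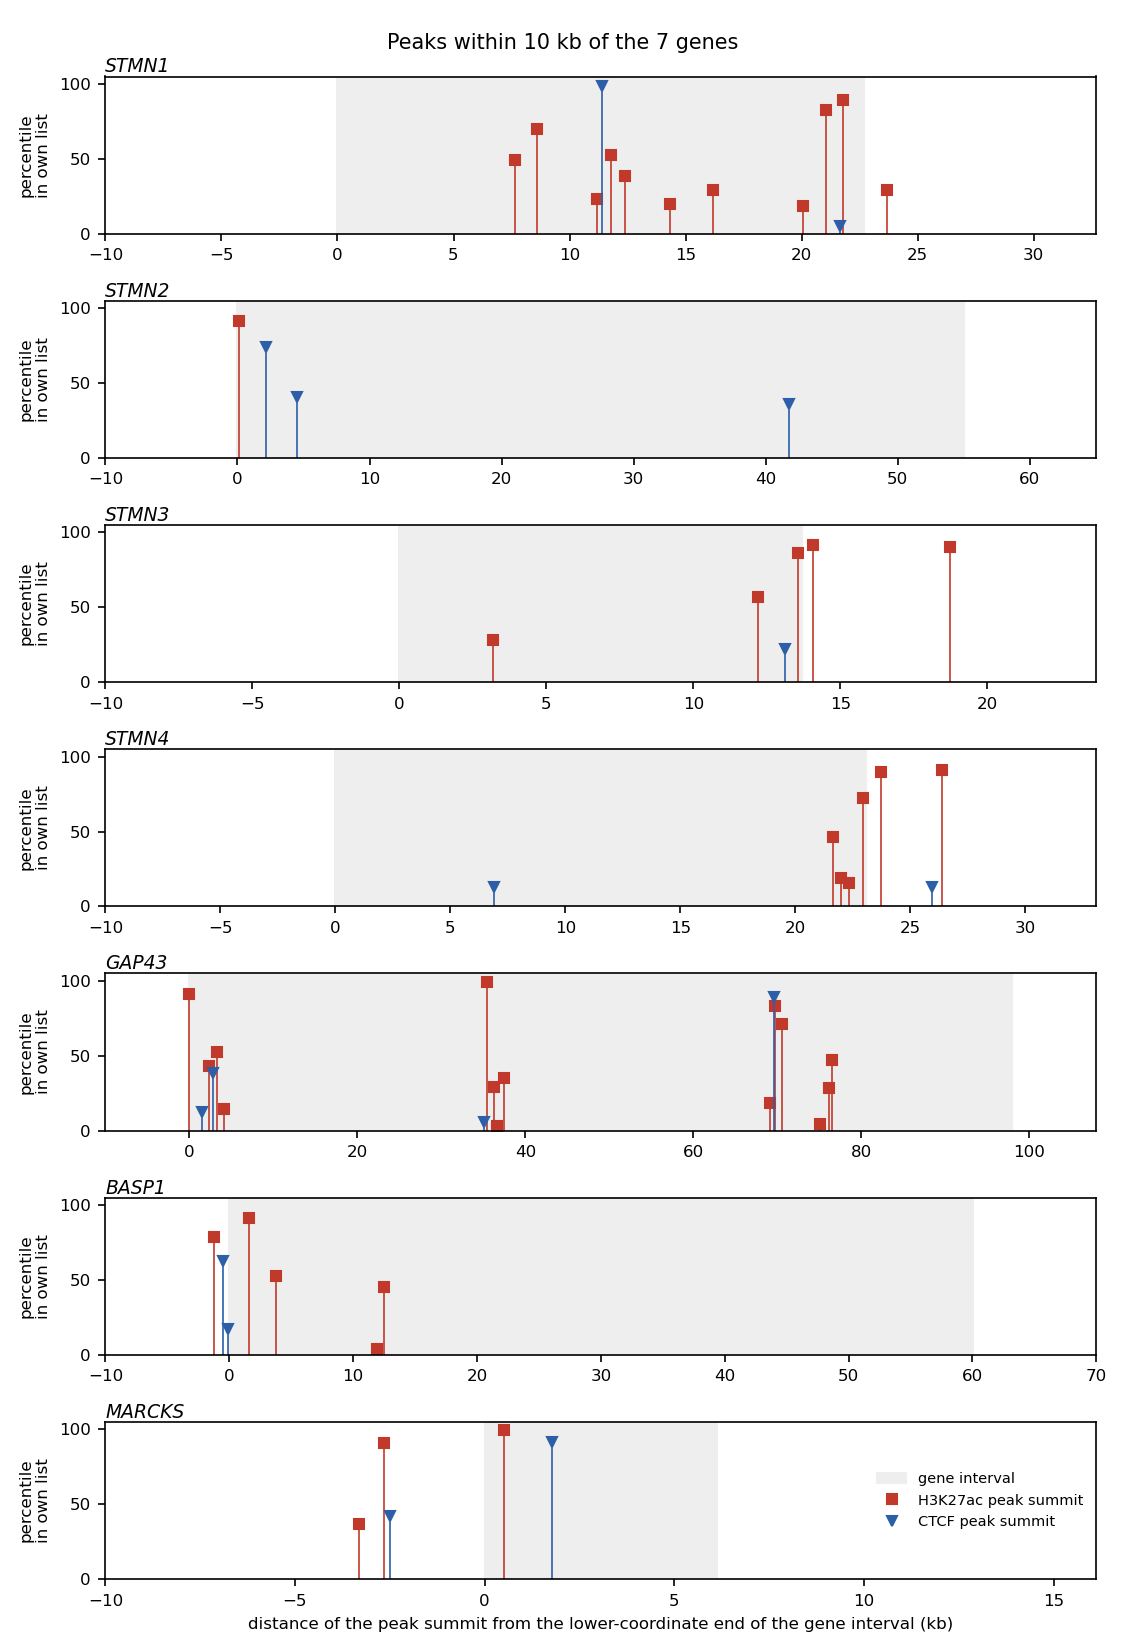
Peaks within 10 kb of each of the 7 genes. The horizontal axis is the distance of the summit from the lower-coordinate end of the gene interval in kb (grey, gene interval), and the vertical axis is the percentile of the peak's value in its own list, for H3K27ac (squares) and CTCF (triangles). GAP43 shows groups of peaks far inside the gene, led by the 47.0-fold peak at 35.4 kb; STMN1 and MARCKS show CTCF above percentile 90.

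All 7 genes had a CTCF peak in the window, against 75.2% of all protein-coding genes. The strongest CTCF signal was 341 at STMN1, 268 at MARCKS, 252.6 at GAP43, 174 at STMN2, 131 at BASP1, 41.9 at STMN3 and 31.6 at STMN4. The first 5 exceeded the median of protein-coding genes, 126, BASP1 only slightly, and the last 2 were at gene percentiles 30.7 and 27.7. All 7 also had a CTCF peak that shared 1 bp or more with an H3K27ac peak, against 44.6% of protein-coding genes. Of the 16 CTCF peaks, 13 did so (81.25%), whereas 34.1% of the 31115 CTCF peaks in windows of protein-coding genes did. H3K27ac intervals covered a median of 7.68% of the members' windows, against 2.38% for all protein-coding genes. This difference in coverage was not allowed for. The CTCF summit itself lay inside an H3K27ac peak for 11 of the 16, and that share was not computed for all protein-coding genes. Of the 16, 7 had the recurrent width of 800 bp, as did 10532 of the 31115 in windows of protein-coding genes. Of these 7, 5 overlapped H3K27ac, against 41.3% of the 10532. At STMN3 and STMN4 every CTCF peak was of this width. Over the promoter window a CTCF peak was listed at 3 of 5 genes (STMN1, STMN3 and BASP1), against 24.6%; their signals, 21.9, 41.9 and 36.1, were all below the list median of 91.0. The strongest CTCF peaks of STMN1, GAP43 and MARCKS lay inside the genes and over no promoter window, with summits 10.5 kb, 69.6 kb and 1.76 kb from the nearest start.

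The distances to the next peak beyond the 10 kb windows differed widely. On the lower-coordinate side of GAP43 the next CTCF peak was 405.5 kb from the gene, at percentile 98.1 of such distances over protein-coding genes, and on the higher-coordinate side of BASP1 it was 836.9 kb away, at percentile 99.4; the median was 39.6 kb. For H3K27ac the longest distances were 210.7 kb on the lower-coordinate side of BASP1 and 161.6 kb on that of STMN2, at percentiles 89.4 and 85.1. STMN3 was the opposite case, with H3K27ac peaks 11.02 kb away (value 5.21) and 11.9 kb away (29.1), just outside the window, while the outermost peak inside it, the 16.6-fold peak, had its summit 5.01 kb beyond the gene. The next CTCF peak outside a window lay 13.1 kb from BASP1, with a signal of 119.

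The 7 genes were set beside 34 genes of the same biology: cytoskeletal partners, membrane fellows, kinases and regulators of axon growth. Of these, 33 had an H3K27ac peak and 31 a CTCF peak, against 77.1% and 75.2% of all protein-coding genes, and 28 had a strongest H3K27ac peak above the median of protein-coding genes. Their median strongest value was 22.6, against 18.0 for the 7 genes and 12.3 for all protein-coding genes. The highest were CFL1 (64.9), encoding the actin-severing cofilin, MAP1B (57.3), a microtubule-associated protein of growing axons, and RTN4 (42.7), the gene of the outgrowth inhibitor Nogo. MARCKSL1, the close relative of MARCKS, had 28.8. The lowest with a peak were PRKCB (9.66), a kinase of GAP43 and MARCKS, VASP (8.23), an actin regulator, and DPYSL4 (5.96), a collapsin response mediator. SPRR1A, which is known from regenerating adult neurons, had no peak of either list. ELAVL4, the gene of the RNA-binding protein HuD that stabilises GAP43 mRNA, had 11.9. Of 29 partner genes with a promoter window, 25 had H3K27ac over it, against 61.4% of protein-coding genes, and 6 had CTCF over it, which is near the 24.6% of protein-coding genes. A CTCF peak that overlapped H3K27ac was listed at 23 of the 34, against 44.6%.

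**Figure D4:**
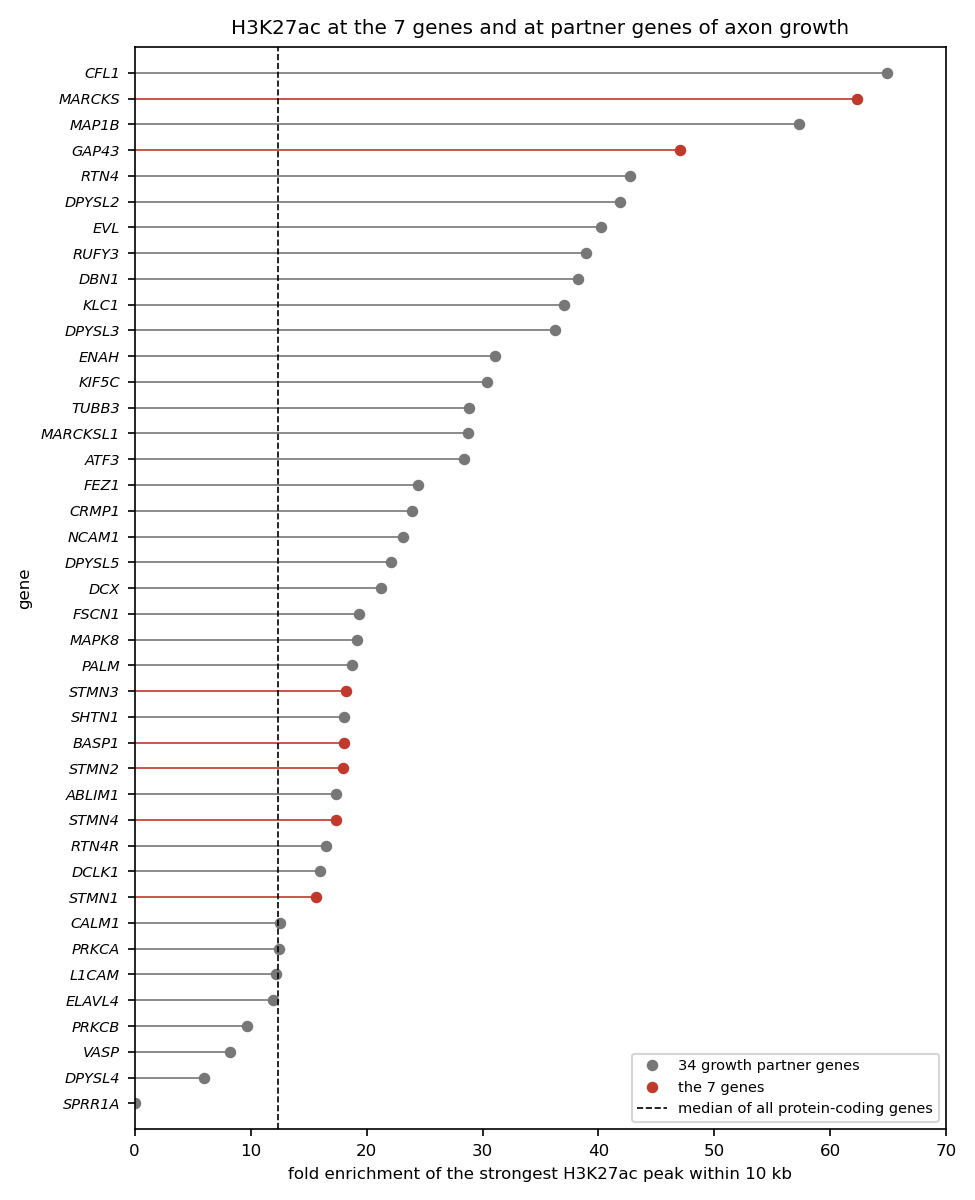
Fold enrichment of the strongest H3K27ac peak within 10 kb of the 7 genes (red) and of 34 partner genes of axon growth (grey), in order; the dashed line is the median of all protein-coding genes, 12.3. MARCKS and GAP43 rank among the highest 4 of the 41 genes, and the other 5 lie between 15.6 and 18.2.

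The labelled cell type was checked through H3K27ac at marker genes in the same windows, where a neighbouring gene can also supply a peak. All 10 neuron markers had a peak (strongest values 5.96 to 35.9), as did all 6 neural progenitor markers (9.81 to 40.98). Among 6 astrocyte markers, 5 had a peak (4.39 to 62.8, AQP4 having none). Such a peak was listed at 77.1% of all protein-coding genes, so its presence alone does not tell a cell type. GFAP, the intermediate filament gene of astrocytes, had the highest value of these markers of 6 cell types, and GJA1 had 30.4. The median strongest value, with markers without a peak at 0, was 14.8 for neuron, 26.1 for progenitor and 17.1 for astrocyte markers. The median of all protein-coding genes was 12.3. RBFOX3 (5.96), INA (9.87), ELAVL3 (11.6) and ELAVL4 (11.9) were below it, and the other neuron markers were above it. Peaks were listed at 3 of 6 oligodendrocyte markers, with a highest value of 8.004, and at 3 of 6 pluripotency markers, with a highest value of 12.1. Among 6 microglia markers, 3 had a peak: AIF1 (46.8), PTPRC (26.0) and CSF1R (3.42). OLIG2, NANOG, CX3CR1, P2RY12 and TMEM119 had none. Neuron, progenitor and astrocyte markers thus all had a peak but for AQP4, and so did some markers of the other cell types. The share of each cell type in the culture behind the peaks at the 7 genes was not tested.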

How the data were processed

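ChIP-seq for CTCF and H3K27ac was made in KOLF2.1J neurons (2 libraries each, with 2 input libraries). Per the labels' protocols, chromatin was fixed with formaldehyde and sonicated, and libraries were amplified by PCR. Per the submitters' processing notes, which name cutadapt 1.16 and hg38, the build is that of GRCh38; aligner, peak caller and settings are not given in the sources used here. The authors deposited 1 peak list of 10 columns per antibody for both replicates. Column 7 was used: in the deposited CTCF list a peak signal of unstated scale, and in the deposited H3K27ac list a value read as fold enrichment, a ratio, from its range. The deposited −log10 q served in an alternative. Depth cannot be recovered from these values, and neither list was compared with the other in value.

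Gene intervals, transcript starts and promoter sequences came from RefSeq tables of GRCh38.p14, and coordinates are 1-based. Overlap meant 1 bp. A percentile is the share of the list below a value plus ties counted at 50%. Genes without a peak took the value 0. Matching and motif code (Python 3.11.15, pandas 2.3.3) was tested on simulated data. The 7 genes and the partner, marker and motif lists were chosen with earlier results of these data known. Named were the 7 genes, genes in their windows, and the 3 highest, 3 lowest and peakless partners. MARCKSL1 and ELAVL4 were added after their values were seen. Genes in the windows not mentioned above are PAQR7, SNRPFP2 and RPL39P7 (STMN1), LOC105375916 (STMN2), RTEL1-TNFRSF6B (STMN3) and RNU6-1003P (BASP1).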

Additional observations from a re-analysis of the deposited data

How the results depend on the processing

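No paired analysis was possible because each list covers both replicates together, so the results without single replicates could not be computed either. Of 32 alternatives to the counts and median percentiles, 4 moved and 28 did not. Not moving meant staying within 1.5 times the count or within the 95% Wilson interval of the percentile. That interval does not measure spread between replicates or among the 7 genes, so these labels reflect the chosen limits only. Some of the 28 could not have moved. A wider window cannot change a count already at 7 of 7 or 5 of 5, nor raise the partners' 33 or 31 of 34 by 1.5 times. Every member's strongest H3K27ac peak was in the upper 50% of the list, which fixed that count too. The 28 therefore do not all speak to stability. The number of members with H3K27ac over the promoter window fell from 5 to 1 (GAP43) when the summit had to lie inside the window, as it did for 17.9% of genes. The number with CTCF over it fell from 3 to 0 in the strongest 50% of the CTCF list (10.7% of genes). The median percentile of the strongest H3K27ac peak, 91.4, was 89.6 among peaks in windows of protein-coding genes, and that of the strongest CTCF peak, 74.0, was 83.6 with windows of 50 kb. For single genes, STMN4 had a strongest H3K27ac value of 7.501 and STMN3 of 13.2 in the gene interval alone, against 17.3 and 18.2 with 10 kb, and BASP1 had a strongest CTCF signal of 36.1 against 131. With 50 kb, STMN3 reached 29.1 for H3K27ac, and STMN4 and BASP1 reached 219.7 and 207.5 for CTCF. Members with a CTCF peak fell from 7 to 5, losing STMN3 and STMN4, in the strongest 50% of the list (57.5% of genes) and without the 800 bp width (65.6%).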
